A study of Mus musculus with 3 samples.

Results

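Cytosolic ribosomal protein genes encode the proteins of the 40S and 60S subunits that translate cytosolic mRNA. They were taken from total RNA-seq of mouse primary T-helper 1 cells as the protein-coding genes whose GENCODE symbol is Rpl or Rps followed by a digit, Rplp0, Rplp1, Rplp2, Rpsa or Fau, leaving out pseudogenes and the Rps6k kinases. The rule found 87 of the 50600 annotated genes. Of these, 78 were core ribosomal protein genes, with 32 of the small and 46 of the large subunit. Another 8 were copies of core genes, namely Rpl3l, Rpl7l1, Rpl10l, Rpl22l1, Rpl36al, Rpl39l, Rps27l and Rps27rt. The last was Rps19bp1, which the naming rule took in although it encodes a protein that binds Rps19 and is not itself a ribosomal protein. The rule left out Rack1, whose product is also in the ribosome.

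The series held 1 group of 3 libraries, labelled biological replicates 1, 2 and 3, each from its own biosample but with 1 donor identifier in common. The cells were from strain C57BL/6NJ, age was given as unknown, sex was not collected, and no genetic change or treatment was named. The count tables carried a time of 0 hr in their headers. T-helper 1 cells are CD4+ T cells that make interferon gamma and act against intracellular microbes. With 1 group, genes were compared within a library and libraries with each other, so no comparison spoke of a condition. Whether the biosamples came from separate animals was not stated, so the spread between libraries may be technical.

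Ribosomal protein genes are active in nearly every cell, and their products are needed in equal numbers because each ribosome holds a single copy of most of them. Many of their mRNAs begin with a C followed by a run of pyrimidines, the 5' terminal oligopyrimidine (TOP) tract, through which growth signals by way of the kinase mTOR and the protein LARP1 control their translation. Lymphocytes that are activated enlarge and make many new ribosomes before they divide.

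The values below rest on how fragments were assigned to strands. A fragment was counted for a gene where its first read had the gene's strand, and the orientation of the library kit was not given in the sources used here. For a kit of reverse orientation, what is listed under a gene would be signal from its opposite strand, so levels below are those of the tables as counted. The highest mean of any protein-coding gene was 22616 TPM, at mt-Nd6, and partners on the other strand exceeded several members, as given below. Which orientation applies was not tested. Genes whose exons overlap an opposite-strand exon held 63.1%, 53.8% and 76.5% of all counts in replicates 1, 2 and 3, so replicate 3 stood apart. The members' share of counts and their tests between libraries are given with and without such genes. The libraries held 2510319 to 4305077 counts over 15100 to 17971 genes, with replicate 3 the shallowest. All 10 T cell markers (such as Cd3e and Lck) had counts in every library, with summed levels of 2876, 4841 and 1269 TPM in replicates 1, 2 and 3. Of 5 markers of the T-helper 1 type, 2 had counts in every library and Cxcr3 was at 0, with summed levels of 24.9 to 34.6 TPM. Erythroid and platelet markers were all 4 at 0, B cell markers summed to 33.5 to 49.6 TPM, and myeloid markers to 81.2, 68.0 and 95.9 TPM. Of 5 B cell markers 1 had counts in every library, and Igkc and Ms4a1 were at 0. Of 4 myeloid markers 2 had counts in every library, and Cd14 was at 0. Exons of 1 marker each of the T cell, T-helper 1 and myeloid lists overlap the other strand. The summed T cell markers were thus lowest and the summed myeloid markers highest in replicate 3, where the members' share of counts, given below, was also lowest. The 2 cytotoxic T markers summed to 9.67, 18.4 and 7.67 TPM in replicates 1, 2 and 3. The median of all protein-coding genes with a count was also lowest in replicate 3, at 7.05, 10.2 and 3.57 TPM. The part of these markers in the values of the ribosomal protein genes was not tested.

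The start sites of the genes are shown first, since the tract at the start is what most of these genes are known to share in sequence. RefSeq promoters of build GRCm38.p6 were found for 67 of the 87 genes, 79 promoters in all. A tract, meaning a C followed by at least 5 pyrimidines on the gene's strand, lay within 50 bases of a start in 61 of the 67 genes (91.0%), against 61.2% of all 27025 genes with a promoter. With at least 7 pyrimidines the share was 80.6%, against 31.5% of all genes. A tract began within 5 bases of a start in 37.3% of the genes, against 10.7% of all genes. The lines below give 11 windows from 30 bases before the annotated start to 25 bases from it onward, 5' to 3' on the gene's strand. Capitals mark the tract that begins nearest the start. The first 8 are core genes of both subunits chosen for tracts of 8 to 20 bases, and the last 3 are copies. Other core genes had tracts of 6 bases, such as Rpl12 and Rps2, or none within 50 bases of the start, such as Rplp0 and Rps3.

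Rpl27a (chr7:109519165-109519219, plus strand): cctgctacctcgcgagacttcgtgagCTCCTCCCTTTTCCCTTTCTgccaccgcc
Rpl35 (chr2:39005107-39005161, minus strand): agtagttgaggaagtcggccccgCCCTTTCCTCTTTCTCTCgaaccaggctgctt
Rpl15 (chr14:18270962-18271016, minus strand): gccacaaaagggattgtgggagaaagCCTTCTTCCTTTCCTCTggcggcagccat
Fau (chr19:6057917-6057971, plus strand): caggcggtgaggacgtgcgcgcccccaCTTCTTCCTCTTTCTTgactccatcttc
Rps10 (chr17:27635220-27635274, minus strand): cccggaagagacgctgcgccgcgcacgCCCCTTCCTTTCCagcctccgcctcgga
Rps6 (chr4:86857343-86857397, minus strand): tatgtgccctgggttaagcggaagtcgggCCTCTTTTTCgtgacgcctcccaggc
Rpl38 (chr11:114668550-114668604, plus strand): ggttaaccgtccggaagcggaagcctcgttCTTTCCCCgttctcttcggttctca
Rps27 (chr3:90213624-90213678, minus strand): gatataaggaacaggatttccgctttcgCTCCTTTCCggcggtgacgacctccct
Rps27l (chr9:66946056-66946110, plus strand): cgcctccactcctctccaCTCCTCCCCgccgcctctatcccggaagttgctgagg
Rpl22l1 (chr3:28805478-28805532, plus strand): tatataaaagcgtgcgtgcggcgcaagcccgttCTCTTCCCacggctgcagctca
Rpl3l (chr17:24727796-24727850, plus strand): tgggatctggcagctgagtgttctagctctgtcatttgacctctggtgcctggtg

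Among the windows shown, the tract was longest in Rpl27a, which encodes a large-subunit protein, at 20 bases. It measured 18 bases in Rpl35, 17 in Rpl15, 16 in Fau and 13 in Rps10, and it began 3 to 7 bases before the annotated start in these 5 genes. Rps6, the ribosomal protein phosphorylated by S6 kinase, had a tract of 10 bases with a run of T within it. The tract of Rpl38 was 8 bases long and began at the annotated start itself. The copies also held tracts, with 9 bases in Rps27l and 8 in Rpl22l1. In the window shown, Rpl3l, a copy of Rpl3 known from striated muscle, held none. Its nearest tract, of 9 bases, began 31 bases after this start, beyond the window, so Rpl3l is among the 61 genes with a tract.

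Motifs of known promoter factors were searched in the whole promoter, from 250 bases before to 50 after the start, on both strands. CCGGAAG, the core of sites for ETS factors, was in 38.8% of the 67 genes, against 9.93% of all genes with a promoter and 13.4% of the protein-coding genes in the tables. GGGCGG, the core of Sp1 sites, was in 62.7% of the 67 genes, against 38.2% of all genes and 51.1% of the protein-coding genes. GCCATNTT, a YY1 site, was in 20.9% of the 67 genes, against 6.96% of all genes. TATAA was about as frequent in these genes (26.9%) as in all genes (28.0%). The complement of CCGGAAG has a short pyrimidine run, so its matches can overlap the tract. These matches describe letters in a window and do not show binding.

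Nearly all of the genes were detected. Counts were found for 85 of the 87 in every library, and 84 reached 1 TPM in all 3. TPM here is the count per base of summed exon length, scaled to the same sum in each library. The 87 genes had a median rank at the 99.1 percentile of 13237 protein-coding genes with a count or in the set. A mean of at least 100 TPM was reached by 74 of them, all core genes, out of 672 protein-coding genes in all. The 87 genes lay on 20 chromosomes, with 14 on chromosome 7. The lowest rank of a core gene was at the 85.4 percentile.

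The small subunit genes had a median of 618 TPM and the large subunit genes 462 TPM, each taken over the members' means. Among the genes reported, Rps24, mutated in some patients with Diamond-Blackfan anaemia, had the highest mean, with 4538, 6645 and 2373 TPM. Rps15, a protein near the decoding site, had 3251, 4409 and 1728 TPM. Rps24 was thus higher than Rps15 in each library on the deposited length. With the length of the principal transcript, described below, Rps15 was higher in each library. Its values were then 3294, 4250 and 1823 TPM, against 1900, 2647 and 1035 TPM for Rps24. The order of this pair thus depends on the length used. Next came Rpl17, Rpl8, Rplp1, Rpl32, Rpl36, Rpl23a and Rps3a1, with means from 2815 down to 1717 TPM.

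**Figure D1:**
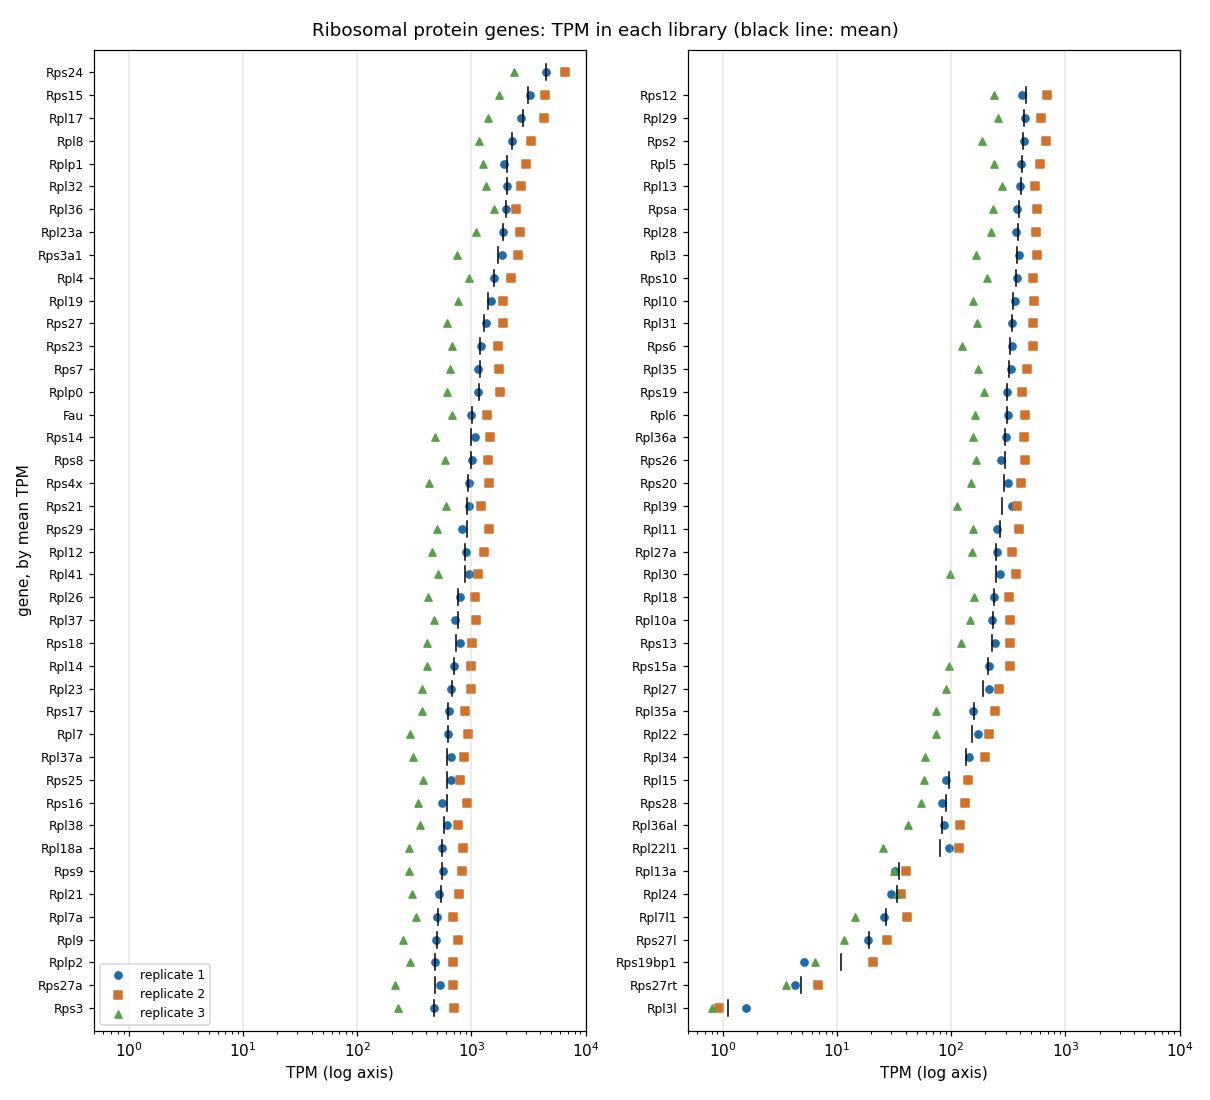
TPM on a log axis of 83 ribosomal protein genes with a count, ordered by mean, with 1 symbol per replicate and a black line at the mean. Replicate 3 was lowest for 81 of the 83 and replicate 2 highest for 82. The median of all 13235 protein-coding genes with a count moved the same way, at 7.05, 10.2 and 3.57 TPM in replicates 1, 2 and 3.

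Some core genes stood far below the rest. Rpl24, a large-subunit protein that bridges to the small subunit, had 58, 74 and 52 counts, or 29.9, 36.7 and 33.8 TPM. Rpl13a, a protein that also takes part in the GAIT complex that silences inflammatory mRNAs, had 129, 166 and 100 counts, or 32.4, 40.1 and 31.7 TPM. The ranges of the 2 genes overlapped. Their TPM varied little between libraries, but scaled for library composition both were higher in replicate 3, as described below. Rpl24 lies at 55966275 to 55971435 on chromosome 16 (plus strand) and Rpl13a at 45125558 to 45128761 on chromosome 7 (minus strand). Each shares exon bases on its own strand with another annotated gene that had 0 counts in all libraries. For Rpl24 this was Gm28037 with 484 shared bases (47.0% of the summed exons of Rpl24), and for Rpl13a it was Gm45713 with 621 shared bases (29.4%). A fragment that lies on both genes of such a pair is not counted for either by default. Of the 87 genes, 26 share exon bases on their own strand with another gene, for the most part small nucleolar RNA genes.

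On the deposited length the next lowest core genes were Rps28 at 83.1, 131 and 54.4 TPM and Rpl15 at 89.5, 140 and 57.8 TPM. Rps28 lies near the mRNA exit of the small subunit, and Rpl15 belongs to the large subunit. Rpl34, Rpl22, Rpl35a, Rpl27, Rpl15 and Rps28 had means between 89.6 and 189 TPM. The level of the core genes at the 90th percentile was 9.42 times that at the 10th. The order of the genes was nearly the same in each library, with Spearman's rho between 0.980 and 0.994 for the 3 pairs of libraries over the 78 core genes. These genes share the libraries and are not independent replicates.

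The spread of levels within the set depended on the length used. The deposited length sums all annotated exons of a gene, with a median of 1730 bases over the core genes, while the principal transcript had a median of 767.5 bases. The ratio of the 2 lengths had a median of 2.15 and reached 7.18 at Rpl35a. With the principal transcript's length the 90th percentile was 4.75 times the 10th, and 6 of the highest 10 genes remained. Rps18 rose from rank 27 to rank 5 (736 to 2596 TPM), Rps25 from rank 34 to rank 7 (608 to 2251 TPM) and Rps19 from rank 58 to rank 23 (309 to 1483 TPM). Rps24 fell from rank 2 to rank 10, from 4519 to 1861 TPM. Its principal transcript of GENCODE M21 has 1613 bases, more than the 840 bases of its deposited exons from GENCODE M13. Rpl24 and Rpl13a remained the lowest of the core genes, at 40.8 and 56.0 TPM. Next came Rps15a at 204, Rpl15 at 227 and Rps20 at 253 TPM, while Rps28 was at 272 TPM. The principal transcripts chosen for Rps15a and Rps20 were long, at 5130 and 3706 bases. Rpl34, Rpl22 and Rpl35a left the low end, at 582, 744 and 891 TPM. The rank correlation of the 2 measures was 0.79 over the 78 core genes, given as a description.

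**Figure D2:**
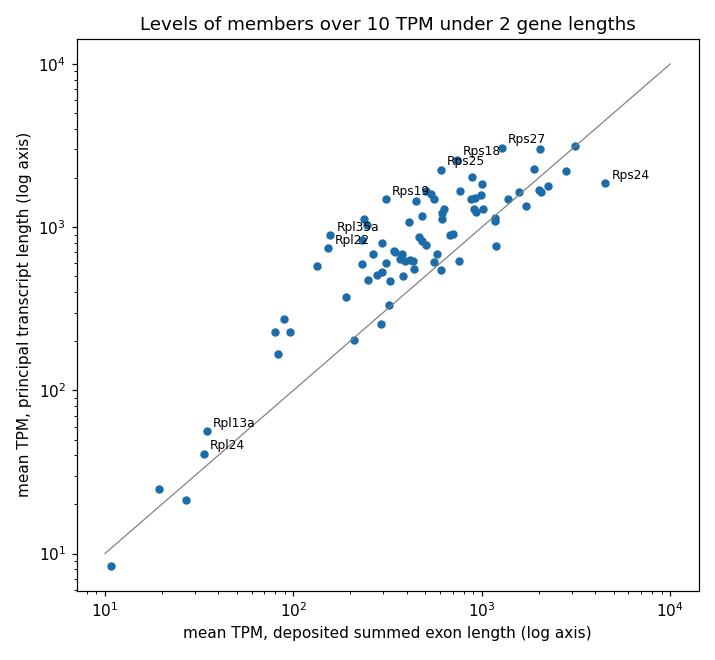
Mean TPM of reported members over 10 TPM, with the deposited summed exon length on the x axis and the principal transcript length on the y axis (both log axes), 1 point per gene and a grey line of equality. Rps18, Rps25 and Rps19 lie above the line and Rps24 below it.

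Genes of the same place in the ribosome did not share 1 level. In the P-stalk, which recruits the GTPases of translation, Rplp1 had 1916, 2994 and 1270 TPM, Rplp0 had 1133, 1772 and 609 TPM, and Rplp2 had 478, 684 and 291 TPM. The order Rplp1, Rplp0, Rplp2 was the same in each library, although the ranges of neighbours over the libraries overlapped. Rpl5 and Rpl11, which form a particle with 5S rRNA that can bind Mdm2 and stabilise p53, were closer, with means of 415 ± 178 and 266 ± 119 TPM (SD, n = 3). Rpl5 was higher than Rpl11 in 3 of 3 libraries on the deposited length, but with the principal transcript length Rpl11 was higher in 3 of 3 (652, 971 and 419 TPM against 634, 873 and 383). The order of this pair thus depends on the length used. Exons of Rpl5 also overlap a gene of the other strand.

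Of the genes made as fusions with ubiquitin or a ubiquitin-like protein, Fau had 1000, 1368 and 682 TPM and Rps27a had 533, 692 and 214 TPM. With the principal transcript length Fau had 1290, 1679 and 915 TPM and Rps27a 1327, 1640 and 554 TPM. Rack1, a small-subunit protein that serves as a signalling scaffold, had 325, 504 and 142 TPM, within the range of the core genes.

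At the mRNA entry, Rps3 had a mean of 467 and Rps2 of 430 TPM, both under Fau at 1017 TPM. At the mRNA exit, Rps14 had 1001, Rps26 295 and Rps28 89.6 TPM. The 8 proteins around the exit of the nascent chain ranged from Rpl22 at 153 TPM to Rpl17 at 2815 TPM. With the principal transcript length they ranged from Rpl35 at 335 to Rpl23a at 2265 TPM, with Rpl22 at 744 and Rpl17 at 2222 TPM. Rpl3 and Rpl10, which reach toward the tRNA sites, were at 377 and 348 TPM. The 4 genes on the X chromosome were Rps4x at 935, Rpl39 at 277, Rpl36a at 297 and Rpl10 at 348 TPM. Rpsa, the laminin receptor precursor, was at 393 TPM and Rps6 at 328 TPM. Each of these is a mean of 3 libraries whose values differed by library as in the plot of TPM by gene.

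The copies were mostly far below their parent genes, per base of exon. Rpl10l and Rpl39l, both known from testis, had 0 counts in every library. A count of 3, used as a floor, would be at most 1.96 TPM for Rpl10l and 2.42 TPM for Rpl39l. With counts summed over the libraries and that floor in each, Rpl10 was at least 221-fold higher than Rpl10l and Rpl39 at least 143-fold higher than Rpl39l. In replicate 3, the shallowest, the bounds were 78.6-fold and 46.2-fold. Rpl3l had 5, 3 and 2 counts, against 2331, 3475 and 777 for Rpl3, a ratio per base of 347 (95% exact interval 188 to 723). Rps27l, a p53 target gene, had 29, 44 and 14 counts, and Rps27 was 67.0-fold higher (54.3 to 83.8). Rpl7l1 had 126, 210 and 56 counts, and Rpl7 was 22.9-fold higher (20.7 to 25.4). Rps27rt had 3, 5 and 2 counts. With the principal transcript length the ratios were larger, at 670 for Rpl3, 124 for Rps27 and 53.0 for Rpl7, and the bounds were 569-fold for Rpl10 and 324-fold for Rpl39. Intervals cover counting error only.

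Rpl36al and Rpl22l1 were the copies closest to their parents. Rpl36al had 86.4, 120 and 41.5 TPM and Rpl36a 304, 431 and 156 TPM, a ratio of 3.59 (3.29 to 3.92). Rpl22l1, whose product can take the place of Rpl22 and which Rpl22 is known to repress, had 95.3, 118 and 25.6 TPM, against 173, 214 and 73.3 TPM for Rpl22. This ratio was 1.90 (1.76 to 2.05), the smallest of the 7 pairs. With the principal transcript length it was 3.24 (3.00 to 3.50), also the smallest of the 7. The log2 ratio of Rpl22 to Rpl22l1 was 0.86, 0.85 and 1.52 in replicates 1, 2 and 3, so replicate 3 stood apart. Exons of Rpl22l1 overlap Gm33051 on the other strand. The smallest p that an exact sign-flip test over 3 libraries can give is 0.25, so no pair was tested over libraries. Rps19bp1 had 8, 34 and 8 counts.

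Near-identical copies elsewhere in the genome are many for this family. The principal transcripts were read in windows of 50 bases, and a median of 51.7% of a gene's windows were found letter for letter in a transcript of another gene. Some such window was found for 83 of the 87 genes, and over 50% of the windows for 45. Rps27 had the highest share, with 98.6%, and 93.3% were shared for Rpl9 and 92.1% for Rpl10. Counting did not include fragments that map to several places. These genes may be undercounted, which was not tested. The share of such windows had a rank correlation of -0.06 with mean TPM over the 78 core genes. This compares different genes and cannot show whether a given gene lost fragments. The 285 pseudogenes named after ribosomal proteins held 893, 1221 and 545 counts in all, or 0.521, 0.484 and 0.701 per 100 counts of the 87 genes. Rpl14-ps1 had the most, with 289, 485 and 184 counts.

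Genes for small nucleolar RNAs, which guide the modification of rRNA, lie within many of these genes. On the same strand, 58 were annotated inside 30 of the members, 27 in introns and 31 overlapping annotated exons. Of the 31 over exons, 29 had 0 counts in all libraries, where a fragment that lies on both genes is counted for neither by default, so these zeros are not measured levels. Of the 27 in introns, 24 had a count. The 58 together had 270 counts over the 3 libraries. Gm26387 and Gm22270, both inside Rpl5, had 51 and 41 counts in all. AF357399 in Rps16 had 17, Snord35a in Rpl13a 16 and Snord58b in Rpl17 14. The assay was labelled total RNA-seq, while the library protocol that the labels link to is named for poly(A)+ RNA, and small RNAs of this kind lack a poly(A) tail. The part of the protocol in the low counts of the intronic genes was not tested.

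The share of all counts that fell on the 87 genes was 4.70%, 5.86% and 3.10% in replicates 1, 2 and 3, with 171363, 252201 and 77718 counts. The exact 95% binomial intervals were 4.68 to 4.72%, 5.84 to 5.88% and 3.07 to 3.12% and did not overlap. The mean was 4.55% ± 1.39 (SD, n = 3). Among genes without exon overlap of the other strand, the 70 members without overlap held 9.67%, 9.74% and 9.35% of the counts, a mean of 9.59% ± 0.210 (SD, n = 3). The gap between replicates 2 and 3 was thus wide on all counts and narrow on genes without overlap. The 78 mitochondrial ribosomal protein genes held 0.334%, 0.324% and 0.415% of all counts. Exons of 26 of these 78 overlap exons of the other strand, and their share without such genes was not computed.

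**Figure D3:**
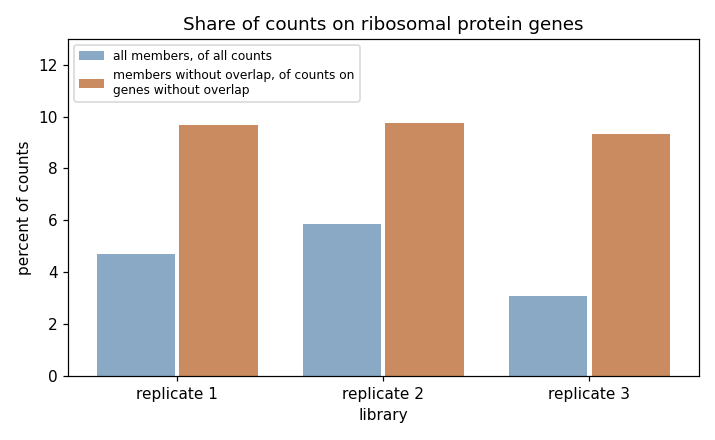
Percent of counts on ribosomal protein genes in each library, of all counts (blue) and, for members without exon overlap of the other strand, of the counts on genes without such overlap (brown). The first falls from 5.86% in replicate 2 to 3.10% in replicate 3, and the second lies between 9.35% and 9.74%.

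Exons of 17 of the 87 genes (19.5%) overlap exons of the other strand, against 22.1% of all protein-coding genes. With at least 50 shared bases required, 16 remained. Several of the genes on the other strand held more counts than the ribosomal protein gene. Tlcd1, which shares 506 bases with Rpl23a, had 17710, 17135 and 21965 counts, against 3023, 4437 and 1394. Wdr38, which shares 821 bases with Rpl35, had 8157, 6417 and 8615 counts, against 774, 1133 and 319. In both pairs the partner was higher in each library and highest in replicate 3. The raw counts of Rpl23a and Rpl35 were lowest there, in the shallowest library. Scaled from genes without overlap, Rpl23a had 772, 745 and 856 CPM (counts scaled to library size) and was highest in replicate 3, and Rpl35 had 198, 190 and 196 CPM.

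Gm33051 had 3573, 2381 and 3092 counts over the whole gene, of which 159 bases are shared, against 357, 460 and 76 for Rpl22l1. Nkiras1 had 1467, 1246 and 1403 counts, against 404, 658 and 207 for Rpl15. Cand2 had 3864, 2746 and 3285 counts, against 3717, 5126 and 1916 for Rpl32. For Rps25, Rpl5, Rpl18 and Rpl28 the partner (Ccdc84, Fam69a, Sphk2 and Ube2s) held fewer counts than the member in each library. The partner's counts over the member's were highest in replicate 3 and lowest in replicate 2 for all 9 pairs named. Over all 19 overlapping pairs it was highest in replicate 3 in 13 and lowest in replicate 2 in 11. It ran the other way for Rpl35 with Arpc5l (0.238, 0.277 and 0.219) and for Rps25 with Trappc4 (0.0117, 0.0141 and 0.00664), which have fewer partner counts.

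**Figure D4:**
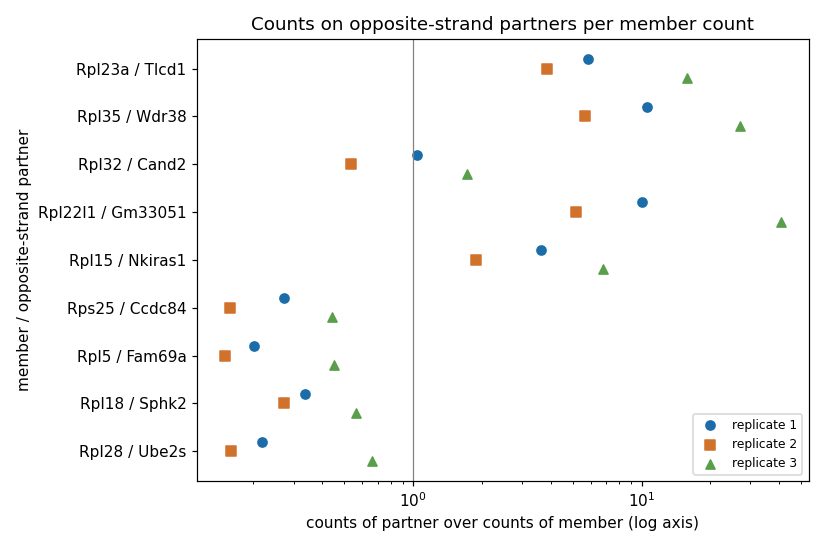
Counts of the gene on the other strand divided by counts of the ribosomal protein gene, for 9 of the pairs with the most partner counts, on a log axis with 1 symbol per replicate and a grey line at equal counts. In all 9 pairs replicate 3 is farthest to the right, up to 40.7 for Rpl22l1 and Gm33051.

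Differences between the libraries were tested per gene against counting error with a Poisson chi-square test at a Benjamini-Hochberg adjusted p of 0.05. It compares these 3 libraries, not conditions. With library sizes scaled by edgeR's TMM method (a trimmed mean of log ratios between libraries), 65 of the 82 members that passed the filter on low counts were called, against 62.4% of all 10662 genes tested. All 78 core genes passed this filter. Without replicate 3 the count fell to 34 of 82 members, against 28.1% of all genes then tested. It was 60 of 83 without replicate 1, against 60.8% of all genes, and 49 of 82 without replicate 2, against 49.7%. Called and lowest in replicate 3 were 51 members, against 27.3% of all genes. Replicate 3 had the lowest scaled value in 61 members, called or not, against 46.7% of all genes.

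That direction depended on the scaling. With scaling from genes without exon overlap, which raises the log2 ratio of replicate 3 to replicate 2 by 0.32 for every gene, 62 members were called, against 53.6% of all genes. On that scaling 29 members were lowest in replicate 3, against 33.2% of all genes. Scaled to total counts, 79 members were lowest in replicate 3, against 64.9% of all genes. On TMM the median log2 ratio of replicate 3 to replicate 2 was -0.27 for members, against -0.40 for genes tested without overlap and 1.03 for those with overlap. Among genes without overlap alone, 50 of 65 members were called, against 38.2% of the 6244 genes tested. A gene with many counts is called at a smaller difference, and among genes with at least 1000 counts 80.0% of 60 members and 59.6% of 738 other protein-coding genes were called.

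Scaled from genes without overlap, members without overlap were spread less widely between libraries than other genes. Their log2 ratio of replicate 3 to replicate 2 had a median of 0.04 and an SD of 0.33 over 65 genes, against -0.11 and 0.75 for 5397 other protein-coding genes without overlap. Among genes with at least 1000 counts the SDs were 0.26 over 60 members and 0.60 over 738 other genes. The ratio of replicate 1 to replicate 2 had an SD of 0.13 over the 65 members. Of the 65, 3 differed by over 1.5-fold, namely Rpl24, Rpl13a and Rpl36, all higher in replicate 3. The same count was not made for the other genes, whose wider SD is given above. The spreads are given as descriptions, since the genes share the libraries.

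**Figure D5:**
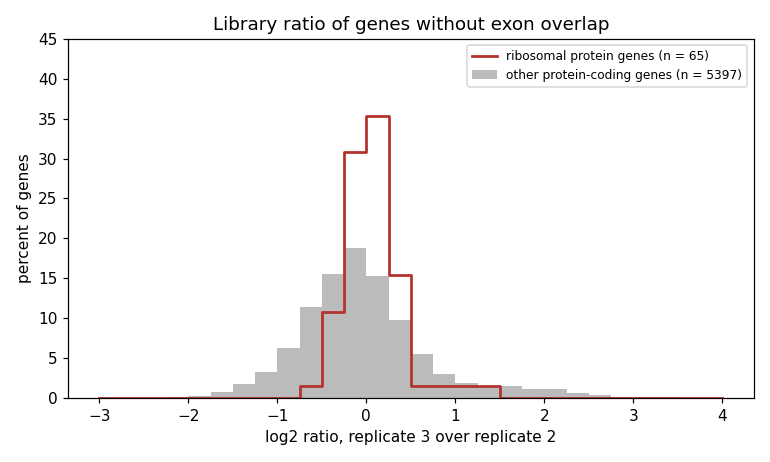
Percent of genes by log2 ratio of replicate 3 over replicate 2, in steps of 0.25, scaled from genes without exon overlap, for 65 ribosomal protein genes (red line) and 5397 other protein-coding genes (grey bars), all without overlap. The red line is narrower (SD 0.33 against 0.75); on TMM scaling both would lie 0.32 farther to the left.

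Near the upper end were Rpl24, Rpl13a, Rpl36 and Rpl13. Rpl24 had 14.8, 12.4 and 31.9 CPM in replicates 1, 2 and 3 on the scaling from genes without overlap, and a log2 ratio of replicate 3 to 2 of 1.36 (adjusted p = 1.63e-06, Poisson test). Rpl13a had 32.9, 27.9 and 61.4 CPM and a log2 ratio of 1.14 (adjusted p = 7.56e-09, Poisson test). Rpl36, a large-subunit protein, had 392, 325 and 586 CPM and a log2 ratio of 0.85 (adjusted p = 2.58e-48, Poisson test). Rpl13, also of the large subunit, had 502, 467 and 665 CPM. All 4 were highest in replicate 3 and lowest in replicate 2, also on TMM. Rpl24 and Rpl13a share exons with a gene of their own strand.

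At the lower end were Rpl22l1, Rps6, Rpl30, Rps2 and Rps3a1. Rps6 had 259, 271 and 181 CPM and a log2 ratio of replicate 3 to 2 of -0.58 (adjusted p = 1.24e-08, Poisson test). Rpl30, a large-subunit protein, had 393, 364 and 271 CPM (adjusted p = 5.85e-10, Poisson test), and Rps3a1, of the small subunit, 861, 826 and 669 CPM. Rpl22l1 had 91.1, 77.3 and 46.6 CPM and Rps2 381, 405 and 312 CPM, and both have exons that overlap the other strand. These 5 were lowest in replicate 3 on this scaling and on TMM. The 4 X-linked genes had unlike log2 ratios of replicate 3 to 2, with 0.01 for Rpl36a, -0.25 for Rps4x, -0.28 for Rpl39 and -0.30 for Rpl10.

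The lists of related genes below had medians far under that of the core genes, which was 522 TPM. Single genes lay within the range of the core genes, such as the mitochondrial Mrps25 at a mean of 415 TPM. Mitochondrial ribosomal proteins, which serve the separate ribosome of mitochondria, had a median of 11.7 TPM over 78 genes, and 26 of 68 tested were called on TMM, against 62.4% of all genes. Ribosome biogenesis factors had a median of 25.9 TPM over 32 genes, led by the nucleolar protein Npm1 at 393 ± 186 TPM (SD, n = 3), and 16 of 32 were called. The 5 RNA polymerase I genes had a median of 14.5 TPM and 3 were called, and of 6 chaperones that carry new ribosomal proteins 2 of 5 tested were called. Of genes that control the TOP mRNAs, 11 of 15 tested were called, 8 of them lowest in replicate 3 on TMM, against 27.3% of all genes called and lowest there, a direction that depends on the scaling as above. Larp1, which binds the TOP tract, had 34.6, 51.9 and 12.9 TPM and was among these (adjusted p = 1.14e-08, Poisson test). Tsc2, which restrains mTOR, had 96.0, 100 and 137 TPM, and its exons overlap the other strand. All 5 tested genes of ribosome rescue were called, against 62.4% of all genes.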

How the data were processed

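Total RNA-seq of 3 libraries in 1 group was used. The authors counted fragments per gene with featureCounts 1.4.6-p4 and deposited raw counts, taken from pairs with both ends mapped, strand setting 1 and GENCODE M13 exons, per the file headers, on mm10, per the labels. The header names STAR and a stranded paired-end library; the aligner's version and the kit are not given in the sources used here. Symbols, biotypes and principal transcripts came from GENCODE M21 (50376 of 50600 identifiers), promoters from RefSeq, and exon overlaps from bedtools 2.31.1.

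TPM were computed from counts and the deposited summed exon length, with a pseudocount of 0.1 on the log2 scale. Variation between libraries was tested by a Poisson chi-square test over genes kept by filterByExpr (edgeR 4.0.16, TMM), with DESeq2 1.42.0 size factors, total counts and scaling from genes without exon overlap as alternatives. Counts of 10662 genes were simulated with Poisson error and the library sizes of the test. There 0.0478% of unchanged genes, 45% of those changed by 1.5-fold and 96% of those changed by 3-fold were called. The simulation held counting error alone, so it does not measure false calls in the real libraries. Libraries held 3647366, 4305077 and 2510319 counts in replicates 1, 2 and 3. Duplicates from PCR could not be separated, and the floor of 3 counts and all intervals describe counting error alone.

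Members, lists and tests were chosen with earlier results of these data known. Named genes were the 10 highest and 10 lowest by mean TPM, paralog pairs, ribosome subgroups, the 10 overlapping members with most partner counts, the 5 largest and 5 smallest ratios of replicate 3 to 2, and the 5 most counted small nucleolar RNAs; others named were chosen after their values were seen. Of the listed pairs, Rps4x with Rps4l was not analysed here. Some genes that the rule names are not reported here.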

Additional observations from a re-analysis of the deposited data

How the results depend on the processing

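The mean share of counts on the members was 4.55%, and 9.59% among genes without exon overlap of the other strand. The members' median percentile was 99.1 on TPM and 98.2 on CPM. The number of members that varied between libraries was 65 on TMM, and leaving out 1 replicate gave 34 to 60, the lowest without replicate 3. The number lowest in replicate 3 was 61 on TMM, 29 with TMM from genes without exon overlap, and 24 when those genes were fitted alone, where 65 members were tested. The share of members with a tract at the start was 91.0%, and it was 97.0% with at least 4 pyrimidines, 80.6% with at least 7, and 64.2% within 20 bases of the start, against 79.4%, 31.5% and 34.2% of all genes. The parent gene stayed above its copy in all 7 pairs with no length correction, a pseudocount of 1, the principal transcript length and each replicate left out. The use of principal transcript lengths, the fit on genes without overlap alone and the tract within 5 bases of the start were added after seeing the data. Counts of 10 or fewer at Rpl3l and Rps27rt, and 0 at Rpl10l and Rpl39l, limit what the depth can show. No paired analysis was possible because there was 1 group.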
